A study of Homo sapiens with 6 samples.

Results

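Cytosolic ribosomal proteins, the proteins of the ribosome outside mitochondria, are encoded by a group of highly expressed genes, and their mRNAs were compared here between Huh-7 cells with and without RAC3 overexpression. Members were taken by symbol, as RPL or RPS followed by a digit, or as RPLP0, RPLP1, RPLP2 or RPSA. The 10 RPS6K kinase genes, the 2 RPS4Y genes and 1 symbol that ends in P and a digit (RPS19BP1, a gene for a binding protein of RPS19) were left out. This gave 88 of the 20332 genes in the table. Of these, 77 encode core proteins of the ribosome (46 of the large and 31 of the small subunit), 8 are paralogs, which are second genes for a protein closely related to a core protein, and 3 are readthrough genes, whose transcripts run on into a neighbouring gene (RPL17-C18orf32, RPL36A-HNRNPH2 and RPS10-NUDT3). In total 86 members had enough counts to be tested. The 2 others were the paralogs RPL10L, with 5 to 11 counts per sample, and RPL3L, with 0 to 5.

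RNA came from Huh-7, an established human hepatocellular carcinoma cell line, and libraries were made from poly(A)-selected RNA. The 3 RAC3 samples were RNA of cells with stable RAC3 overexpression, made with a lentivirus carrying RAC3, a small GTPase of the Rac family. The 3 negative control samples were their corresponding controls, labelled wild type. The question was how the transcriptome of these cells changes with RAC3. Samples were described as independent RNA samples, with no word on separate cultures or on whether a line was 1 clone, so p-values measure the spread between these samples, which may be technical. The genotype labels of RAC3 samples 2 and 3 name RAC4 and RAC5, whereas all titles name RAC3, and RAC3 itself was 35.6, 31.4 and 32.8 normalized CPM, that is counts scaled to the same library size, in the controls against 232.6, 239.6 and 225.4 CPM in the RAC3 samples, so that all 3 RAC3 samples stood apart from the controls. Each sample held between 13855762 and 18199888 counts. All 16 hepatocyte markers had enough counts to be tested. Their summed level was 7943 to 8024 CPM in the controls and 7326 to 7910 CPM in the RAC3 samples. At an adjusted p below 0.05, 6 fell (37.5%) and 5 rose (31.2%), against 15.3% and 13.3% of all genes tested. Of 14 markers of immune, endothelial and mesenchymal cells, 8 had enough counts to be tested, led by LUM and COL1A2, and their summed level was 277.2 to 301.9 CPM against 315.8 to 327.2 CPM. Of these 8, 2 fell (25%) and 3 rose (37.5%), with a median log2 fold change of −0.01. None of the 14 had 0 counts in all 6 samples, but PTPRC, CD3E, VWF, CDH5, DCN and ACTA2 had between 0 and 9 counts per sample. The part of these differences in the results below was not tested.

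A ribosome is built from a large and a small subunit, each a scaffold of ribosomal RNA with its own set of proteins, nearly all present in 1 copy. The small subunit reads the mRNA, the large subunit joins amino acids, and the P stalk of the large subunit recruits elongation factors. Most ribosomal protein mRNAs begin with a C followed by an unbroken run of C and T letters, the 5′ terminal oligopyrimidine (TOP) motif, through which LARP1 and the kinase complex mTORC1 control their translation and stability. Unassembled RPL5 and RPL11, with the 5S RNA, bind the ubiquitin ligase MDM2, and inherited loss of 1 copy of many of these genes causes Diamond-Blackfan anaemia.

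The start sites show the feature that most core genes share and that some paralogs lack. The window from 15 bases before to 15 bases after each RefSeq start site (GRCh38.p14) was read for 70 members, 87 windows in all. Capitals mark a run of at least 6 C and T letters that reaches within 5 bases of the start. The sequences below are those of 6 core genes that the results turn on, first 4 with the lowest p-values, then RPS6 and RPL11.
RPL3 (chr22:39319609-39319638, minus strand): gtaaggccgaccggcctctaccggcgggat
RPL29 (chr3:51995881-51995910, minus strand): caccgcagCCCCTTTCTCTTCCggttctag
RPL7A (chr9:133348203-133348232, plus strand): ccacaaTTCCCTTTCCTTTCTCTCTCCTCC
RPL41 (chr12:56116618-56116647, plus strand): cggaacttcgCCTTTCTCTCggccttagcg
RPS6 (chr9:19380222-19380251, minus strand): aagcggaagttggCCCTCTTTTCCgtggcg
RPL11 (chr1:23691791-23691820, plus strand): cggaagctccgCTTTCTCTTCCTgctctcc
A run was present in 64 of the 87 windows (73.6%) and in 23.1% of the 35116 windows of all genes. RPL17-C18orf32 and RPL36A-HNRNPH2 share a window with RPL17 and RPL36A, and each shared window was counted for both genes. Over the core genes alone 59 of 77 windows (76.6%) held a run. The first transcribed base was C in 62.1% of the members' windows and in 14.7% of all. RPL3 had no such run at its RefSeq start, only a run of 5 letters, while the run of RPL7A filled most of the window. Another RefSeq start of RPL11, not printed, had a run of only 5 letters. Next, the windows of 3 core genes are set above those of their paralogs.
RPL26 (chr17:8383179-8383208, minus strand): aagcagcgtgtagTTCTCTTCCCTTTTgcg
RPL26L1 (chr5:172958714-172958743, plus strand): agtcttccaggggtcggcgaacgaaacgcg
RPS27 (chr1:153990747-153990776, plus strand): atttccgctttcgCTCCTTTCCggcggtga
RPS27L (chr15:63157463-63157492, minus strand): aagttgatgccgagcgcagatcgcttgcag
RPL22 (chr1:6199581-6199610, minus strand): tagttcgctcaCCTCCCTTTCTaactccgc
RPL22L1 (chr3:170870181-170870210, minus strand): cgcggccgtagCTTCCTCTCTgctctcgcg
RPL26L1, in both of its windows, and RPS27L had no run where their core partners had one, while RPL22L1 carried one, as did RPL22. Over the paralogs, 2 of 7 windows held a run. Other motifs were sought in a longer stretch, from 250 bases before to 50 bases after each start. The sequences above show only a part of it. The letters CCGGAAG, on either strand, are the core of sites of ETS transcription factors. They were found in 32.2% of the members' stretches and in 10.3% of all. Read on the other strand these letters are CTTCCGG, which can overlap a run of C and T. The letters AAGATGGC, on either strand, the core of YY1 sites, were found in only 7 of the members' 87 stretches (8.0%), against 2.9% of all. TATAAA, also on either strand, was found in 9.2% against 11.5%.

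Ribosomal protein mRNA made up a smaller part of the library with RAC3 overexpression. The 88 members took 6.43%, 6.31% and 6.39% of all gene counts in the 3 controls and 5.50%, 6.01% and 5.69% in the 3 RAC3 samples. Every RAC3 sample was below every control, and the means were 6.38% ± 0.0577 and 5.73% ± 0.257 (SD, n = 3 each), a ratio of 0.899. With 3 samples against 3, groups that do not overlap give an exact two-sided permutation p of 0.1, the smallest this design allows. The large subunit's core genes went from 3.97% ± 0.0317 to 3.54% ± 0.136 and those of the small subunit from 2.37% ± 0.0258 to 2.16% ± 0.124. The ratio of large to small subunit counts was 1.67, 1.68 and 1.67 in the controls and 1.68, 1.61 and 1.62 in the RAC3 samples, and the groups overlapped. The share of mitochondrially encoded genes was 2.09%, 2.03% and 1.96% in the controls and 2.42%, 2.40% and 2.28% in the RAC3 samples, also without overlap. With those genes left out of the total, the ribosomal protein share was 6.51% ± 0.0601 and 5.87% ± 0.263, a ratio of 0.902. In bulk RNA, fewer cells with a high level and less mRNA per cell cannot be told apart.

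**Figure D1:**
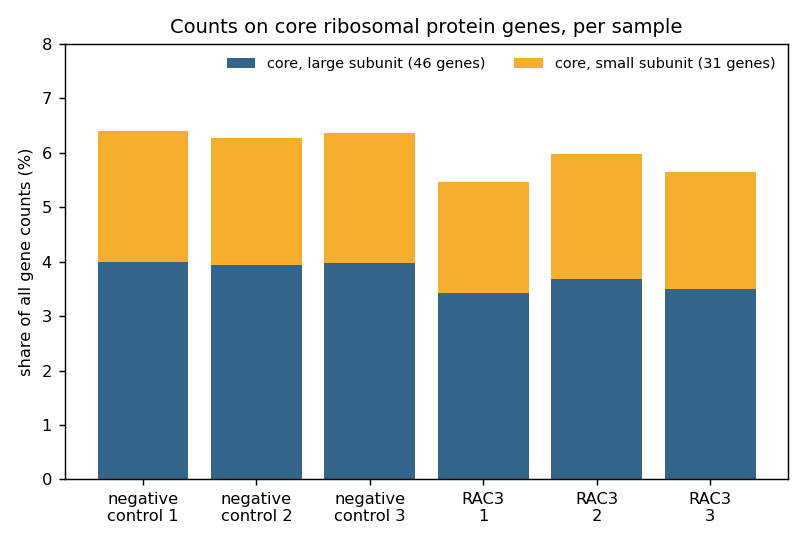
Percent of all gene counts (y axis, from 0) on the core genes of the large subunit (lower part of each bar) and the small subunit (upper part) in each of the 6 samples (x axis). The bars of the 3 RAC3 samples are shorter than those of the 3 negative controls, with RAC3 sample 2 nearest the controls, and both parts are shorter.

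Gene by gene, the fall was small and wide. At an adjusted p below 0.05 (quasi-likelihood test of edgeR, adjusted by Benjamini-Hochberg over all 12941 genes tested), 65 of the 86 tested members fell and 1 rose, and 20 did not pass. Among all genes tested, 15.3% fell and 13.3% rose, against 75.6% of the members that fell. The log2 fold change was below 0 for 81 of the 86, and its median was −0.19, where the median of all genes tested was 0.00. No member passed the study's own thresholds of a fold change above 1.5 and an unadjusted p below 0.05, which 4.68% of all genes passed, although 69 members had an unadjusted p below 0.05. In 58 members every RAC3 sample was below every control and in 3 every one was above, against 21.6% and 20.9% of all genes. DESeq2 called 60 members lower and 2 higher. With library size alone in place of TMM scaling, 42 fell and 3 rose, with a median of −0.14, and with a trend on transcript length removed 38 fell and 3 rose, with a median of −0.12.

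**Figure D2:**
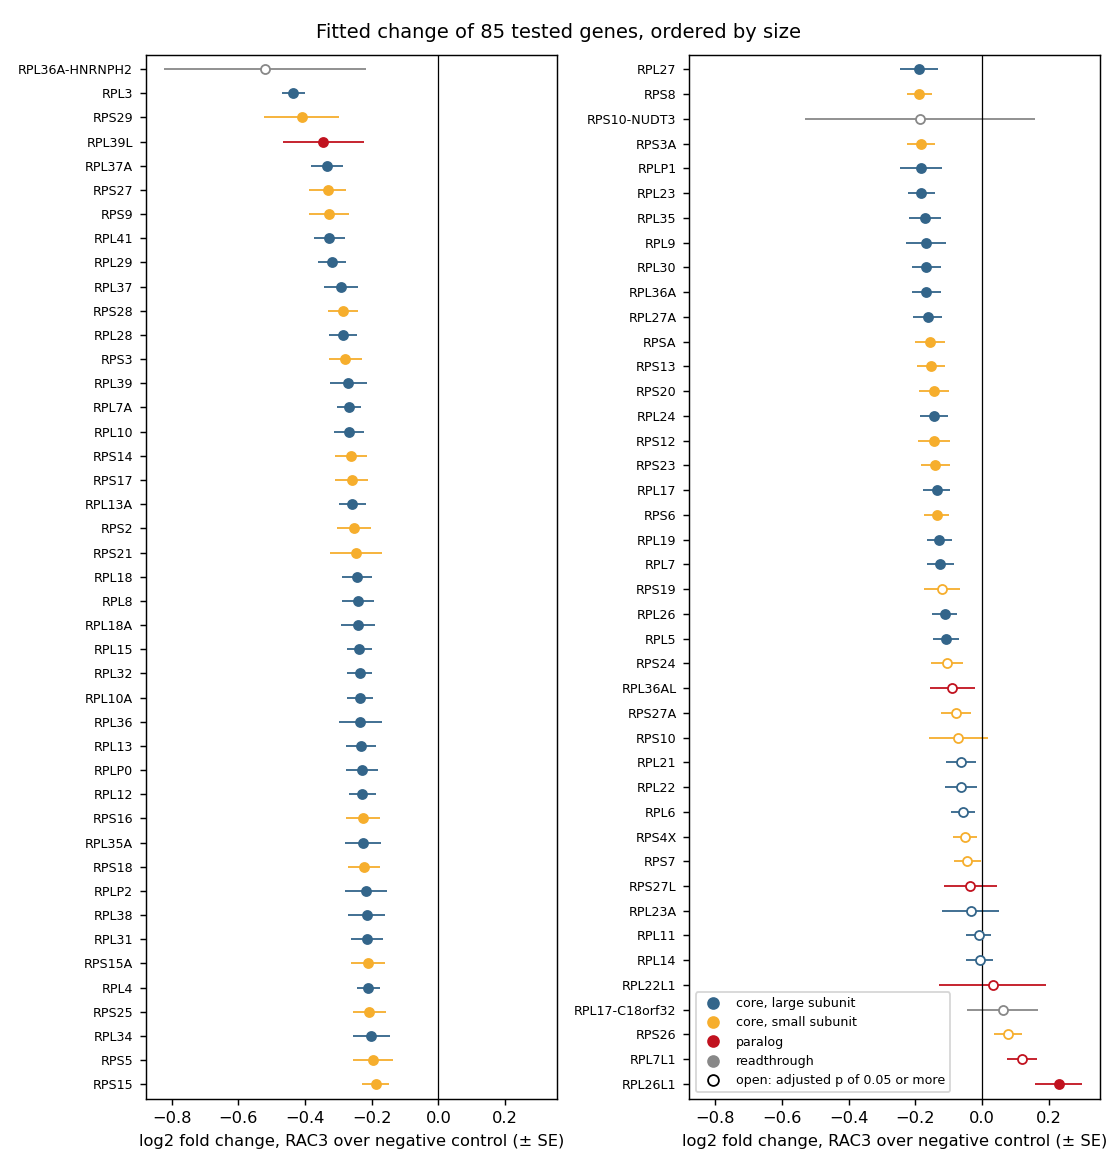
Log2 fold change, RAC3 overexpression over negative control, with its standard error (x axis) for 85 of the 86 tested members, sorted by size over both panels (y axis), with colours for core genes of the large and small subunit, paralogs and readthrough genes and open points for an adjusted p of 0.05 or more. Core genes lie between −0.44 (RPL3) and 0.08 (RPS26), and RPL26L1, at 0.23, is the filled point above 0.

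The RAC3 samples differed among themselves in how far the group fell. The median deviation of the members from the control mean, on the log2 CPM scale, was 0.01, −0.02 and 0.03 in the controls and −0.26, −0.11 and −0.21 in RAC3 samples 1, 2 and 3. RAC3 sample 2 was the nearest to the controls, and without it the median log2 fold change was −0.25, while without RAC3 sample 1 it was −0.15. The number of members that fell was 44 to 64 when any 1 sample was left out.

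**Figure D3:**
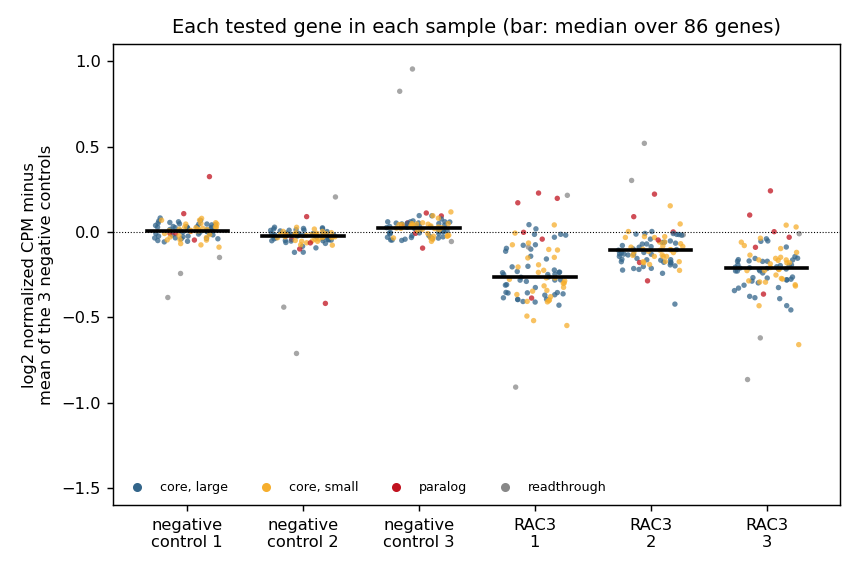
Log2 normalized CPM of each of the 86 tested members minus its mean over the 3 controls (y axis) in each of the 6 samples (x axis), each point 1 gene coloured by class, with bars at the medians. The medians of the RAC3 samples are −0.26, −0.11 and −0.21, and the points far from the rest are mostly readthrough genes.

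Levels per length differed far more between members than between groups. FPKM, which divides counts by depth and transcript length, ran from 22.8 to 5580 over the 77 core genes in control 1, with a median of 795.6, and from 23.6 to 4254 in RAC3 sample 1, with a median of 687.5. In each sample 49 to 51 of the 77 lay within 2-fold of the median. RPS2, a protein at the mRNA entry of the small subunit, was highest at 5367 ± 197 FPKM in the controls and 4691 ± 396 FPKM in the RAC3 samples (mean ± SD, n = 3 each). RPL15 followed at 3193 ± 68.3 and 2776 ± 152 FPKM, then RPL7A at 3055 ± 29.7 and 2637 ± 89.6 FPKM, and in the RAC3 samples these 2 differed by less than their spread. RPL41, the smallest protein of the ribosome, came after them at 2847 ± 110.1 and 2357 ± 158 FPKM. RPSA, RPLP0, RPL13A and RPL10 came next and lay within 1 SD of each other in the controls, with RPSA at 2397 ± 49.7 FPKM and RPLP0 at 2425 ± 104 FPKM.

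The lowest of the core genes was RPL23A, at 22.5 ± 1.05 FPKM in the controls and 23.1 ± 0.457 FPKM in the RAC3 samples. Above it were RPS10 at 53.3 ± 2.63 and 52.8 ± 6.48 FPKM, RPS29 at 98.2 ± 8.12 and 76.7 ± 16.6 FPKM, RPL34 at 169.5 ± 7.96 and 154 ± 6.51 FPKM, and RPS21 at 183 ± 5.28 and 161 ± 21.9 FPKM. The GRCh38 annotation holds 91 pseudogenes named after RPL23A, 32 after RPS29, 16 after RPL34, 11 after RPS10 and 3 after RPS21. How reads that match both a gene and its copies were counted is not given in the sources used here, so the levels of these genes are uncertain. Over the 77 core genes, mean FPKM and the number of pseudogenes had a Spearman rho of −0.09 and a Pearson r of −0.21, a description across genes of the same libraries. The order of the levels was nearly the same in both groups (Spearman rho 0.985 over the 77 core genes, also a description).

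Of all 77 core genes 64 fell (83.1%), with a median log2 fold change of −0.21, and the classes below are parts of this set. Their counts are to be read beside that share, and differences between classes were not tested. Of the genes for proteins near the catalytic centre and the tRNA sites 5 of 5 fell, with a median log2 fold change of −0.24. RPL3, which reaches with a long extension to the peptidyl transferase centre, was 2223, 2186 and 2139.9 CPM in controls 1 to 3 and 1622, 1629 and 1591 CPM in RAC3 samples 1 to 3. It had the smallest adjusted p of all members (log2 fold change −0.44, SE 0.034, adjusted p = 3.7e-08), and the 3 RAC3 samples lay close together. RPL10, which is placed late in assembly and is needed for joining of the subunits, was 1673, 1579 and 1609 CPM against 1256, 1448 and 1333 CPM (log2 fold change −0.27, SE 0.045, adjusted p = 0.000186). RPL36A, near the exit site of tRNA, was 304, 308 and 319 CPM against 289, 277 and 263 CPM (log2 fold change −0.17, SE 0.044, adjusted p = 0.00817), with an adjusted p of 0.0753 without RAC3 sample 3. RPL8 and RPL10A fell by 0.24 each on the log2 scale.

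The mRNAs of all 4 proteins of the P stalk and its base fell, with a median log2 fold change of −0.22. RPLP0, the base on which the stalk's RPLP1 and RPLP2 pairs sit, was 2852, 2632 and 2608 CPM in the controls and 2104, 2464 and 2328 CPM in the RAC3 samples (log2 fold change −0.23, SE 0.048, adjusted p = 0.00142), without overlap. RPLP1 was 322, 309.7 and 342 CPM against 254, 322 and 283 CPM (log2 fold change −0.18, SE 0.063, adjusted p = 0.036), and RPLP2 was 178, 157 and 178 CPM against 139.5, 162 and 139 CPM (log2 fold change −0.22, SE 0.062, adjusted p = 0.0126). For both, the level in RAC3 sample 2 reached into the range of the controls. RPLP1 was −0.10 on the log2 scale without RAC3 sample 1 (adjusted p = 0.216) and −0.28 without RAC3 sample 2 (adjusted p = 0.00181). Neither gene passed without control 3, RAC3 sample 1 or RAC3 sample 3. RPL12, which binds at the stalk's base, fell by 0.23 on the log2 scale.

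The pair that forms the 5S RNP with 5S RNA moved little. RPL5 was 684, 693 and 726 CPM against 664, 659 and 629 CPM and passed the threshold narrowly (log2 fold change −0.11, SE 0.039, adjusted p = 0.0462), and it did not pass without control 2, control 3, RAC3 sample 2 or RAC3 sample 3, with an adjusted p of 0.0593 to 0.213. RPL11 was 492, 504 and 505 CPM against 507, 501 and 482 CPM, the groups overlapped, and no fall was detected (log2 fold change −0.01, SE 0.039, adjusted p = 0.874). Scaling by library size alone gave a log2 fold change of 0.05 for RPL11, so no direction can be given for it.

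At the peptide exit tunnel and its rim 7 of 8 genes fell, with a median log2 fold change of −0.15. RPL39, a very small protein in the tunnel wall, was 244, 229 and 261 CPM against 206, 216 and 186 CPM (log2 fold change −0.27, SE 0.056, adjusted p = 0.00124). RPL26 was 1120.8, 1162 and 1138 CPM against 1067, 1079 and 1019 CPM (log2 fold change −0.11, SE 0.037, adjusted p = 0.0281), and its adjusted p was 0.0513 to 0.164 without control 2, control 3 or RAC3 sample 3. RPL31 and RPL4 fell by 0.21 each on the log2 scale. RPL23A, which docks the signal recognition particle at the tunnel's exit, did not pass at 22.4, 20.6 and 22.7 CPM against 21.7, 21.3 and 21.3 CPM (log2 fold change −0.03, SE 0.085, adjusted p = 0.805).

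Of the other 27 core genes of the large subunit 23 fell, with a median log2 fold change of −0.23, and the smallest p-values of the whole group after RPL3 were here. RPL29, a small basic protein of the subunit's surface, was 685, 657 and 649 CPM in the controls and 505, 561 and 529.5 CPM in the RAC3 samples (log2 fold change −0.32, SE 0.043, adjusted p = 2.02e-05). RPL7A was 2814, 2727 and 2755 CPM against 2207, 2386 and 2294 CPM (log2 fold change −0.27, SE 0.036, adjusted p = 2.17e-05). RPL41, which lies at the bridge between the subunits, was 1386, 1314 and 1417 CPM against 1043, 1183 and 1057 CPM (log2 fold change −0.33, SE 0.045, adjusted p = 3.02e-05). In each of these 3 genes RAC3 sample 1 was the lowest and no RAC3 sample reached the controls. RPL37A, a zinc finger protein, was 390.2, 369.6 and 391 CPM against 289, 329 and 294 CPM (log2 fold change −0.33, SE 0.049, adjusted p = 4.82e-05). RPL28, which has no pseudogene of its name in the annotation, was 759, 717 and 703 CPM against 586, 622 and 578 CPM (log2 fold change −0.29, SE 0.042, adjusted p = 4.94e-05). RPL32 was 1089.7, 1057 and 1078 CPM against 912, 937 and 887 CPM (log2 fold change −0.24, SE 0.036, adjusted p = 8.86e-05). The groups did not overlap in any of these 6 genes. The 4 genes that did not pass were RPL6, RPL14, RPL21 and RPL22, with log2 fold changes of −0.06, −0.01, −0.06 and −0.06. RPL14, named after its values were seen, was 536, 542 and 576 CPM against 567, 548 and 530.3 CPM, with overlapping groups.

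In the small subunit 24 of 31 core genes fell, with a median log2 fold change of −0.19, against 40 of 46 and −0.21 in the large subunit, a difference that was not tested. The mRNA entry and the decoding centre had 5 of 5 genes lower, with a median of −0.25. RPS2 was 5424, 5119 and 4977 CPM against 3894, 4679 and 4449 CPM (log2 fold change −0.25, SE 0.05, adjusted p = 0.000942), the lowest value being that of RAC3 sample 1. RPS9 and RPS3, which line the mRNA entry, fell by 0.33 and 0.28 on the log2 scale. At the mRNA exit and the platform 5 of 6 genes fell, with a median of −0.22. RPSA, also known as the laminin receptor, was 2869, 2726 and 2741 CPM against 2278, 2649 and 2557 CPM (log2 fold change −0.16, SE 0.045, adjusted p = 0.0143), and −0.09 on the log2 scale without RAC3 sample 1 (adjusted p = 0.0595). RPS21 was 66.2, 66.5 and 68.9 CPM against 47.8, 62.7 and 60.0 CPM (log2 fold change −0.25, SE 0.078, adjusted p = 0.0237), and −0.13 on the log2 scale without RAC3 sample 1 (adjusted p = 0.141). It also did not pass without control 2 or control 3. The sixth gene there, RPS26, which contacts the mRNA upstream of the start codon, had the only log2 fold change above 0 among the 77 core genes. It was 380.1, 389.6 and 397 CPM in the controls and 399.9, 432 and 399.6 CPM in the RAC3 samples, without overlap, and did not pass (log2 fold change 0.08, SE 0.042, adjusted p = 0.176).

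In the head and beak 7 of 10 genes fell, with a median log2 fold change of −0.18. RPS29, a zinc-binding protein of the head, had the largest fitted fall of the small subunit but few counts, at 28.2, 29.4 and 32.6 CPM against 20.5, 28.3 and 19.0 CPM (log2 fold change −0.41, SE 0.11, adjusted p = 0.0104). Its groups overlapped, and the adjusted p was 0.0531 to 0.0714 without control 3, without RAC3 sample 1 or without RAC3 sample 3. RPS10 was 33.0, 30.7 and 33.5 CPM against 26.3, 33.5 and 33.1 CPM and did not pass (log2 fold change −0.07, SE 0.088, adjusted p = 0.586), nor did RPS19, the gene most often mutated in Diamond-Blackfan anaemia (log2 fold change −0.12, SE 0.053, adjusted p = 0.0985), or RPS27A, which is made as a fusion with ubiquitin (log2 fold change −0.08, SE 0.046, adjusted p = 0.225). Of the other 10 small subunit genes 7 fell. RPS27, a zinc finger protein, was 286, 274 and 289.8 CPM against 214, 251 and 209.9 CPM (log2 fold change −0.33, SE 0.056, adjusted p = 0.000213). RPS6, whose protein is phosphorylated by S6 kinase below mTORC1, was 674, 676 and 693 CPM against 633, 626 and 601 CPM (log2 fold change −0.14, SE 0.038, adjusted p = 0.0115), with all RAC3 samples below all controls, and its adjusted p was 0.0843 without RAC3 sample 3. RPS4X, RPS7 and RPS24 did not pass. The list of 18 Diamond-Blackfan anaemia genes, which crosses these classes, had 12 lower (66.7%) and 0 higher, and its median was −0.18 on the log2 scale. By comparison, 83.1% of the core genes and 15.3% of all genes tested were lower.

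Of the 6 paralogs tested 1 fell and 1 rose, with a median log2 fold change of 0.00, which is 16.7% in each direction and near the 15.3% and 13.3% of all genes tested. RPL26L1, a near copy of RPL26, was 35.5, 37.7 and 33.2 CPM in the controls and 41.5, 41.3 and 41.8 CPM in the RAC3 samples (log2 fold change 0.23, SE 0.07, adjusted p = 0.0185). The groups did not overlap, but the adjusted p was 0.103 without control 3 and 0.0606 without RAC3 sample 3. RPL7L1, a nucleolar relative of RPL7 that acts in large subunit assembly, was 183, 181 and 188 CPM against 207, 196 and 197 CPM, without overlap, and narrowly failed (log2 fold change 0.12, SE 0.045, adjusted p = 0.0505). RPL39L, a form of RPL39 best known from the testis, was 12.7, 10.99 and 11.7 CPM against 9.004, 9.66 and 9.15 CPM (log2 fold change −0.35, SE 0.12, adjusted p = 0.0392). Its adjusted p was above 0.05 in 5 of the 6 fits with 1 sample left out. RPS27L, the paralog of RPS27, was 27.1, 26.8 and 30.2 CPM against 27.2, 27.1 and 28.02 CPM (log2 fold change −0.03, SE 0.079, adjusted p = 0.779), RPL36AL was 45.1, 44.0 and 47.1 CPM against 45.3, 40.1 and 42.6 CPM (log2 fold change −0.09, SE 0.068, adjusted p = 0.352), and RPL22L1 was 11.2, 6.73 and 9.59 CPM against 10.3, 8.99 and 8.80 CPM (log2 fold change 0.03, SE 0.16, adjusted p = 0.904). These last 3 had overlapping groups.

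The ratio of paralog to core partner, taken within each sample, does not depend on the scaling of the libraries. On the log2 scale the ratio of RPL26L1 to RPL26 counts changed by 0.34, that of RPS27L to RPS27 by 0.31 and that of RPL7L1 to RPL7 by 0.25, and in these 3 pairs every RAC3 sample was above every control. Each had an exact two-sided permutation p of 0.1, the smallest possible, and 0.2 after Benjamini-Hochberg adjustment over the 6 pairs. The ratio changed by 0.12 for RPL22L1 to RPL22 (exact p = 0.8), by 0.08 for RPL36AL to RPL36A (exact p = 0.3) and by −0.07 for RPL39L to RPL39 (exact p = 0.4). In FPKM the RPS27L ratio changed by 0.18 (exact p = 0.2), and the length behind the FPKM of RPS27L varied by a factor of 1.21 over the samples. Of the 6 partners 5 fell and RPL22 did not pass, with log2 fold changes of −0.13 for RPL7, −0.11 for RPL26, −0.17 for RPL36A and −0.27 for RPL39. RPL7 did not pass without control 2, control 3, RAC3 sample 2 or RAC3 sample 3.

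**Figure D4:**
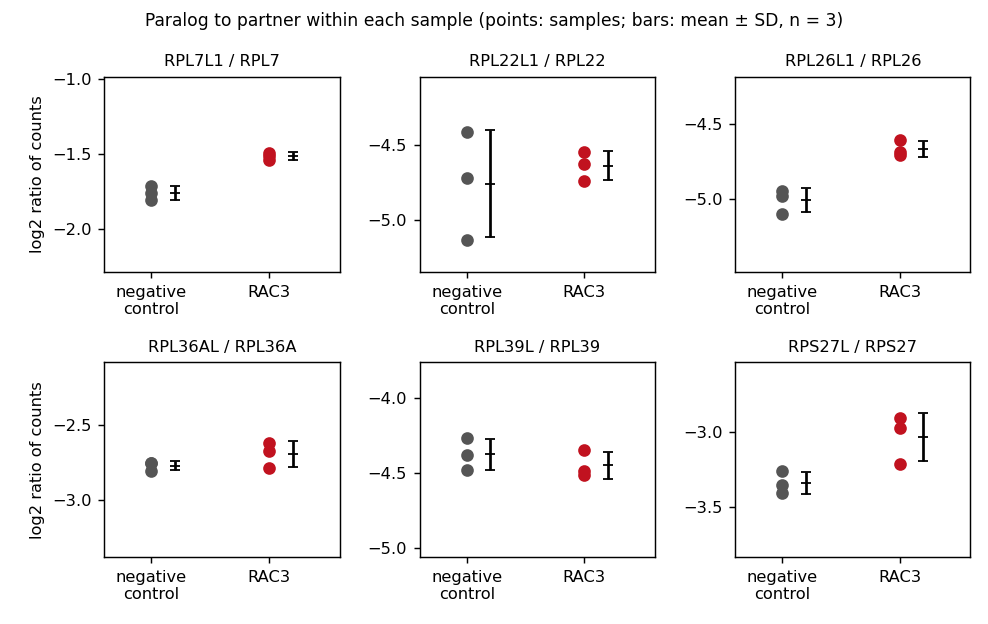
Log2 ratio of paralog to core partner counts (y axis of each panel, all of the same height in log2 units) in the negative control and RAC3 samples (x axis) for 6 pairs, each point 1 sample, with the mean and SD (n = 3) beside it. RAC3 samples lie above all controls for RPL7L1, RPL26L1 and RPS27L, and overlap the controls in the other 3 pairs.

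Readthrough genes gave no call over all 6 samples. RPL36A-HNRNPH2 had the largest fitted change of all members but few and uneven counts, 87, 90 and 258 in the controls against 77, 165 and 63, and overlapping groups (log2 fold change −0.52, SE 0.3, adjusted p = 0.214). Without RAC3 sample 2 it was −1.04 on the log2 scale and passed (adjusted p = 0.0206). RPS10-NUDT3 (log2 fold change −0.19, SE 0.34, adjusted p = 0.73) and RPL17-C18orf32 (log2 fold change 0.06, SE 0.11, adjusted p = 0.707) also overlapped. Their reads are shared with RPL36A, RPS10 and RPL17, and the split between them depends on the counting.

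Start site, length and base composition were then set beside the changes. There were 59 tested genes, readthrough genes included, with a run of C and T in at least 1 start window. Their median log2 fold change was −0.21, and 45 fell and 0 rose. The 10 without a run were RPL3, RPL6, RPL15, RPL26L1, RPL27, RPL7L1, RPS4X, RPS15, RPS27L and RPS29. Their median was −0.12, with 5 lower and 1 higher. Of these 10, 3 are paralogs, and over the 7 core genes without a run the median was −0.19, with 5 lower and 0 higher, against −0.21 over the 55 core genes with one. RPL3 and RPS29, which had the largest falls of the core genes, were both among the 10. RPL3, RPL6 and RPS4X had a run of 5 letters at a start, just below the 6 required, so the split depends on this limit. Core transcripts were short, with a median length of 643.3 bases against 2700.0 over all genes tested, and had a GC content of 47.9% against 48.2%. Across the 77 core genes the log2 fold change had a Spearman rho of −0.41 with GC content and 0.12 with length, and across all genes tested of −0.51 (12863 genes) and 0.16 (12941 genes). These are descriptions across genes of the same 6 libraries. With a GC trend removed 59 members fell and 1 rose, with a median of −0.18.

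Beyond the members, 2 ribosomal proteins with other symbols are described. RACK1, a protein of the small subunit's head and a signalling scaffold, was 2386, 2305 and 2312 CPM against 1859, 2004 and 1965 CPM (log2 fold change −0.27, SE 0.037, adjusted p = 2.91e-05). FAU, the precursor of RPS30, did not pass (log2 fold change −0.16, SE 0.068, adjusted p = 0.0959). Of 19 other mRNAs with a known TOP motif, a list that holds both genes and several translation factors, 11 fell and 0 rose, with a median log2 fold change of −0.12. EEF2, the factor that moves the ribosome along the mRNA, was 7344, 6916 and 6609.8 CPM against 4819, 5193 and 5089 CPM (log2 fold change −0.47, SE 0.04, adjusted p = 1.03e-07), and HNRNPA1, an RNA-binding protein, fell as well (log2 fold change −0.25, SE 0.036, adjusted p = 4.55e-05). The share that fell was 57.9%, against 15.3% of all genes tested. With library size alone 6 of the 19 fell, and without control 2 or RAC3 sample 3 7 fell.

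Among the factors that work on ribosomes, 5 of 12 elongation and termination factors fell (41.7%) and 2 rose (16.7%). Over all genes tested the shares were 15.3% and 13.3%. The 5 lower genes were EEF1A1, EEF1A2, EEF1D, EEF1G and EEF2. All but EEF1A2 are also in the TOP list above. EEF1A2, the form of the tRNA-carrying factor known from brain and muscle, had a log2 fold change of −0.80, and EEF1G of −0.23, while ABCE1, which recycles ribosomes, had 0.29 and ETF1, the release factor, 0.19. Without control 3, 4 rose. Of 38 initiation factors 11 fell (28.9%) and 6 rose (15.8%). The share that rose was near that of all genes in both lists of factors. Of the 11, EIF3L, EIF4B and PABPC1 are in the TOP list too. Without control 2 or RAC3 sample 3, 6 initiation factors fell. EIF4A2, EIF1 and EIF3L were the 3 lower genes with the smallest p-values, at −0.36, −0.25 and −0.23, and EIF1AX, EIF5B and EIF2S1 the 3 higher, at 0.30, 0.33 and 0.26. Ribosome assembly factors, which process ribosomal RNA and build the subunits, had 23 of 88 genes higher (26.1%, against 13.3% of all genes tested). Of the 88, 2 were lower (2.27%, against 15.3%), and the median was 0.07 on the log2 scale. Without control 2, 13 were higher, and without RAC3 sample 1, 4 were lower. Without control 3 or RAC3 sample 2, 1 was lower. UTP15 was 20.9, 18.8 and 20.4 CPM against 30.5, 28.2 and 27.0 CPM (log2 fold change 0.51, SE 0.085, adjusted p = 0.000182), NOP58 was 67.9, 68.6 and 71.2 CPM against 102, 86.7 and 86.6 CPM (log2 fold change 0.41, SE 0.064, adjusted p = 0.000115) and NOL11 had a log2 fold change of 0.37. The 2 lower genes were FBL, the methyltransferase of box C/D particles, at −0.30, and NOP56, at −0.13. Of 14 genes of RNA polymerase I and its factors 3 rose (21.4%, against 13.3% of all genes tested), POLR1F, RRN3 and TAF1C. POLR1D fell, which is 7.14% against 15.3%. Without RAC3 sample 3 none fell.

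**Figure D5:**
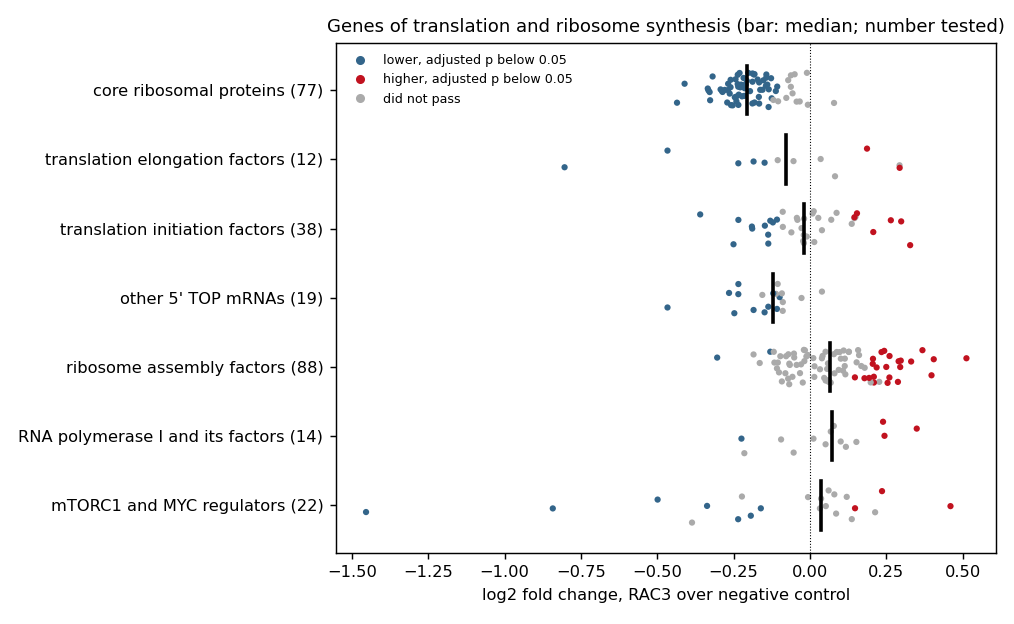
Log2 fold change, RAC3 overexpression over negative control (x axis), of each tested gene of the core ribosomal proteins and 6 related gene lists (y axis, number tested in brackets), each point 1 gene, with bars at the medians and colours for the call. The core genes have a median of −0.21 and the assembly factors a median of 0.07.

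Among regulators of ribosomal protein mRNA, 7 of 22 genes of mTORC1 and MYC control fell (31.8%, against 15.3% of all genes tested) and 3 rose (13.6%, near the 13.3% of all genes). Without control 1 or RAC3 sample 3, 1 rose, and without control 2, 2 rose. MYC, a transcription factor that drives ribosome production, was 62.5, 62.5 and 64.9 CPM against 84.6, 91.0 and 85.7 CPM (log2 fold change 0.46, SE 0.056, adjusted p = 7.4e-06). LARP1, which binds TOP mRNAs, was 752, 730.1 and 712 CPM against 668, 627 and 668 CPM (log2 fold change −0.16, SE 0.04, adjusted p = 0.00479). EIF4EBP1, a repressor of translation that mTORC1 turns off, was 186, 181 and 169.7 CPM against 120.1, 133 and 127 CPM (log2 fold change −0.50, SE 0.052, adjusted p = 1.2e-06). DDIT4, a stress-induced inhibitor of mTORC1, was 112, 63.2 and 37.0 CPM against 23.1, 26.6 and 27.2 CPM (log2 fold change −1.45, SE 0.24, adjusted p = 0.000163), with a wide spread among the controls. MLST8, a subunit of mTORC1, fell, with a log2 fold change of −0.34, and EIF4EBP2 and LARP4 rose, at 0.15 and 0.24. MDM2, the ubiquitin ligase that RPL5 and RPL11 can bind, was 62.8, 55.0 and 56.5 CPM against 72.3, 66.2 and 72.2 CPM (log2 fold change 0.28, SE 0.064, adjusted p = 0.00336). It was above all controls in each RAC3 sample, and with a GC trend removed it did not pass. CDKN1A, a cell cycle inhibitor, did not pass (log2 fold change −0.13, SE 0.11, adjusted p = 0.4).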

How the data were processed

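Poly(A)-selected RNA of 3 RAC3-overexpressing and 3 negative control samples of Huh-7 was sequenced. The deposited table gives, for each gene, raw counts and FPKM in every sample. It also gives group means of FPKM by the authors, which were not used. The submitters' processing notes name Bowtie2 2.2.8, HISAT2, StringTie 1.3.1 and DESeq2, without their roles. The genome build, the annotation, the strand setting and the handling of reads that match several places are not given in the sources used here. Samples were grouped by title.

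Counts were analysed with edgeR 4.0.16 in R 4.3.3. Genes were kept by filterByExpr (12941 genes), scaled by TMM, and compared by the two-sided quasi-likelihood test without covariates, with Benjamini-Hochberg adjustment over all genes tested. The edgeR, DESeq2 and limma-voom fits were tested on simulated counts with planted changes. Trend removal was run on the same counts with a random covariate, without a planted trend. The other steps were not tested in this way. CPM values are TMM-normalized. Totals of 13855762 to 18199888 counts and 3 samples per group limit the precision. Ratios of paralog to partner were compared by exact permutation tests. Alternatives were other scalings, filters on low counts, DESeq2 1.42.0, limma-voom of limma 3.58.1, the replicate number as a block, length and GC trends, and leaving out each sample. The GC trend, and both trends for the related lists, were added after the data were seen. Start windows came from RefSeq (GRCh38.p14), matched by symbol. 70 members had a window that was used and 18 did not. Those on chromosome 8 (RPL7, RPL8, RPL30 and RPS20) were left out, while the windows of all genes were not restricted by chromosome. Gene symbols are those of the deposited table, and 617 genes had none.

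The members, gene lists and tests were chosen with earlier results of these data known. Genes named were RAC3, members past a fold change of 1.5, the 8 higher and 8 lower members with the smallest p at an adjusted p below 0.05 (1 was higher), paralogs and partners, RPL5, RPL11, RPLP0, RPLP1, RPLP2, RPS6, the 5 highest and 5 lowest core genes by mean FPKM, readthrough genes, FAU, RACK1, MDM2, CDKN1A, MYC, LARP1 and up to 3 genes per list in each direction by p. Other members were named after their values were seen. A few items that this rule covers are not reported here. None of the 13 listed long noncoding hosts of small nucleolar RNAs was in the table analysed here.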

Additional observations from a re-analysis of the deposited data

How the results depend on the processing

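The fall of the members kept its direction under all settings tried: the median log2 fold change of the tested members was below 0 in each, and the count that fell was within 1.5 times the reported 65 except with library size alone (42) and with the length trend removed (38, median −0.12). The count that rose, 1 as reported, was 2 with DESeq2 size factors, upper-quartile scaling, DESeq2 and limma-voom, and 3 with library size alone and with the length trend removed. Leaving out 1 sample at a time gave 44 to 64 lower and 0 to 1 higher, medians from −0.25 (without RAC3 sample 2) to −0.15 (without RAC3 sample 1), and 0 to 2 members past a fold change of 1.5, namely RPL36A-HNRNPH2 (−0.72 without control 1, −0.74 without control 2, −1.04 without RAC3 sample 2) and, without RAC3 sample 2, RPS29 (−0.60). Signs turned for genes near 0. RPL22L1 was −0.0652 with the GC trend removed and −0.151 (without control 2) to 0.187 with 1 sample left out, and its ratio to RPL22 was −0.0685 to 0.29. RPS27L was 0.0214 with library size alone, 0.0287 with the length trend removed and −0.0725 to 0.0207 (without control 3) with 1 sample left out. RPL11 was 0.0464, 0.0629 and −0.0258 to 0.0103 (without RAC3 sample 3) in the same settings. RPS10 was 0.0128 with the length trend removed and 0.0366 without RAC3 sample 1, and RPL23A was 0.0228 with library size alone and 0.0275 with the length trend removed. In the related lists, library size alone gave 4 lower initiation factors, 6 lower TOP mRNAs, 1 lower and 35 higher assembly factors and 6 higher mTORC1 and MYC genes. The length trend removed gave 1 lower assembly factor. The GC trend removed gave 1 higher elongation factor and 4 lower assembly factors. Leaving out 1 sample at a time gave 4 to 5 lower and 2 to 4 higher elongation factors, 6 to 11 lower and 5 to 6 higher initiation factors, 7 to 12 lower TOP mRNAs, 1 to 4 lower and 13 to 23 higher assembly factors, 0 to 1 lower and 2 to 3 higher polymerase I genes, and 5 to 8 lower and 1 to 3 higher mTORC1 and MYC genes. The cause was not tested. Deviations from the group mean correlated at −0.13, −0.06 and −0.01 between same-numbered samples of the 2 groups, over 10169 genes. Between samples with different numbers the correlations were −0.04 to 0.10, so no shared signal of the replicate numbers was seen. With 3 samples per group, whether same-numbered samples shared a culture or batch cannot be told from this. With the replicate number as a block 59 members fell and 1 rose, with a median of −0.20. Counts limit RPL10L and RPL3L, which were not tested, and the readthrough genes.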
